A study of Rattus norvegicus with 12 samples.

Results

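Interferon-stimulated genes were followed in the lungs of Sprague-Dawley rats under Sugen-Hypoxia (SuHx), with and without the aryl hydrocarbon receptor (AhR), and in endothelial cells (ECs). The set was a list of 38 gene symbols, matched by name to the 19230 rows of a deposited RNA-seq table. It included 37 symbols that were found, in 37 rows, and 1 that was not, Xaf1. A row can name several genes: Ifit2 and Ifit3 shared a row, Ddx58 stood in 2 rows, and 7 of the 37 rows named several genes, whose signals cannot be told apart. All 37 rows passed the filter on low values in every comparison. The table held 12 libraries in 4 groups of 3: total lung of rats of the wild type (WT) at day 0, in normoxia, total lung of WT rats at day 4 of SuHx, total lung of rats labelled AhrKO at day 4 of SuHx, and ECs of WT rats in normoxia. SuHx combines SU5416 (Sugen), an inhibitor of VEGF receptors, with hypoxia and is used to model pulmonary arterial hypertension in rodents. The samples include no AhrKO rats in normoxia and none given only the drug or only hypoxia. Drug, hypoxia and disease therefore cannot be told apart. The AhrKO SuHx lungs could be set against normoxia of WT rats only, where genotype and SuHx differ together. The ECs are labelled day 4, while their column names give 0, and the sources used here do not say how they were isolated or cultured. The libraries are named here by the suffix of their columns, 0 to 2. Nothing in the labels says whether the 3 libraries of a group came from separate animals, so p-values measure the spread between these samples, which may be technical.

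Interferons are secreted proteins that warn cells of infection. Type I interferons bind the receptor of Ifnar1 and Ifnar2 and act through the kinases Jak1 and Tyk2 and a complex that holds Stat2 and Irf9 and binds interferon-stimulated response elements (ISREs). Interferon gamma acts on gamma-activated sites (GAS), with Irf1 as an early target. The products of the induced genes sense viral RNA, degrade or sequester it, tag proteins with Isg15, attack intracellular pathogens and load peptides onto MHC class I.

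Most of the member promoters that were searched hold a motif in common. RefSeq windows of the GRCr8 assembly, from 250 bases before to 50 after the start of a gene, were found by symbol for 28 of the members. The ISRE core was searched as GAAANNGAA on both strands. It was found in 18 of the 28 member promoters (64.3%), against 10.3% of the 27457 genes in the table. The GAS core, searched as TTCNNNGAA on both strands, was found in 6 member promoters (21.4%), against 9.39% of all genes. The core of the AhR response element, GCGTG on both strands, was found in 9 member promoters (32.1%), against 32.4% of all genes. The promoters of Bst2, Oas1a, Parp14 and Psmb8 held both interferon motifs, and only in that of Bst2 did the matches overlap. A match is a description of the letters, not of binding. Windows of Ddx58, Dhx58, Ifit1, Ifit2, Isg15, Mx2, Nlrc5, Oas2 and Usp18 were not used here.

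The stretches below stand for the roles described in the results: Rsad2 was called in SuHx lung, Ifit3 shares a row with Ifit2, Irf7 amplifies the interferon response, Gbp2 and Tap1 stand for 2 groups that were higher in ECs, Bst2 has the overlapping matches, and Irf1 had the largest difference in ECs among the rows with a window. Capitals mark the ISRE core, on either strand, or for Irf1 the GAS core, with 15 bases on each side. The GAS match of Bst2 that overlaps its ISRE core is not marked separately. Each is printed 5′ to 3′ on the strand of its gene.
Rsad2: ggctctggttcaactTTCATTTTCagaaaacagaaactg
Ifit3: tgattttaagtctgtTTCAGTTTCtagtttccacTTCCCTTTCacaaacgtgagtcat
Irf7: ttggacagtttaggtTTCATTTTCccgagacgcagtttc
Gbp2: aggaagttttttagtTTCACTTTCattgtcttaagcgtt
Tap1: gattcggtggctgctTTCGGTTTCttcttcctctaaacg
Bst2: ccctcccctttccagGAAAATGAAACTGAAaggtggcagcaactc
Irf1: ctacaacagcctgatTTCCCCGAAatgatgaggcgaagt
In GRCr8 these lie at chr6:48788243-48788281 on the minus strand for Rsad2, chr1:241527268-241527325 on the plus strand for Ifit3, chr1:205800068-205800106 on the minus strand for Irf7, chr2:234005682-234005720 on the plus strand for Gbp2, chr20:4668640-4668678 on the minus strand for Tap1, chr16:18255069-18255113 on the minus strand for Bst2 and chr10:38417778-38417816 on the plus strand for Irf1. All are upstream of the annotated start. The Ifit3 stretch holds 2 separate ISRE matches and the Bst2 stretch 2 ISRE matches that run into each other. The match nearest to the start lies 24 bases before it in Ifit3, 30 in Gbp2, 68 in Irf7, 120 in Tap1, 125 in Bst2 and 146 in Rsad2.

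The genotype label was checked first. Ahr mRNA was not lower in the lungs labelled AhrKO (2515, 2523 and 1800.0) than in the WT SuHx lungs (1996, 3073 and 1739.6), and the sources used here do not name the part of the gene that was deleted, so this mRNA level is no check of the label. Cyp1a1, the classic AhR target, had a signal of 65459, 68888 and 75070.5 in the WT SuHx lungs and of 3.87, 5.31 and 5.32 in those labelled AhrKO. Signal is the deposited unit, an estimated read count divided by 1 factor per library, with 20.04 M to 28.6 M reads behind each library. A gene was called at an adjusted p under 0.05 in limma, fitted on log2(signal + 1) over all genes. Values are signal per library in the order 0, 1, 2 or mean ± SD (n = 3), and log2 fold changes stand with their standard errors. By the lists' own rule, up to 2 members per role with the highest mean are given as examples, and other members singled out below were chosen after their values were seen.

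**Figure D1:**
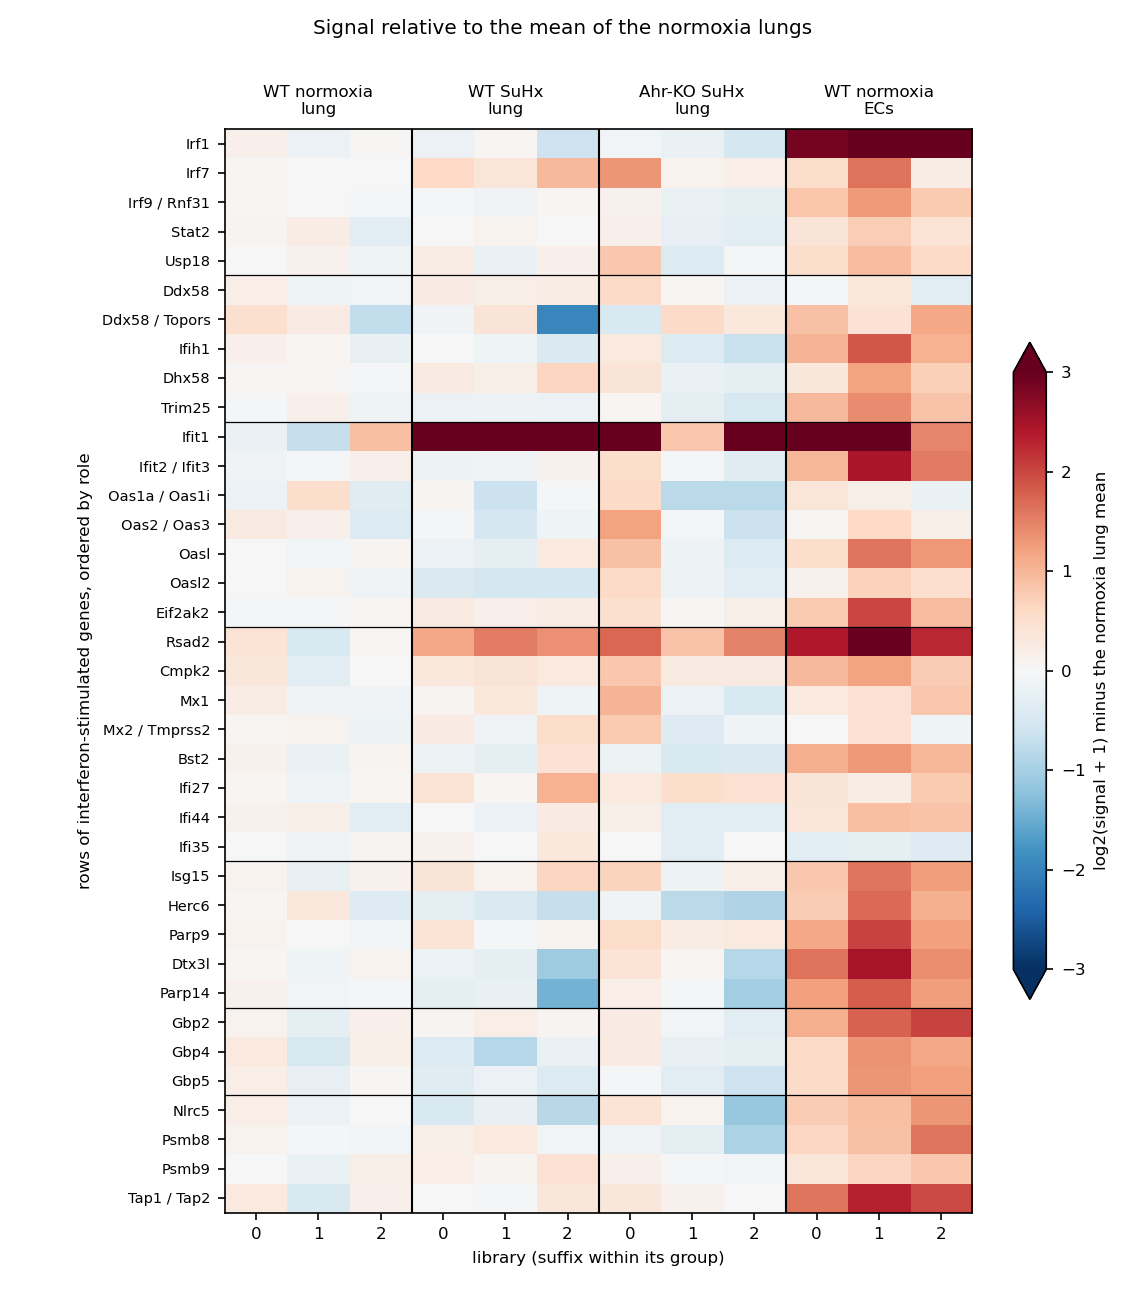
Signal of each of the 37 rows (vertical axis, ordered by role, separated by lines) in each of the 12 libraries (horizontal axis), as the difference of log2(signal + 1) from the mean of the normoxia lungs. Colours stop at a difference of 3 in either direction. Ifit1 and Rsad2 stand out in the SuHx lungs, AhrKO library 0 is above the other AhrKO libraries in most rows, and 30 of the 37 rows were called higher in the ECs.

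In WT lung, Ifit1 and Rsad2 rose with SuHx, and the other 35 of the 37 rows were not called in either direction. Ifit1, which binds viral RNA that lacks the cap modifications of host mRNA, rose 16.3-fold, and Rsad2 (viperin), which makes a chain-terminating nucleotide, rose 2.57-fold. Of all tested genes, 7.08% were called higher and 6.39% lower in this comparison, so a count of 2 higher among 37 is close to the background. The median log2 fold change of the members was 0.05, against -0.04 over all tested genes. An unadjusted p under 0.05 was found for 4 of the 37 members and for 31.7% of all tested genes.

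For Ifit1, normoxia lung gave a signal of 34.2, 23.9 and 74.4, WT SuHx lung of 666, 603 and 707, and AhrKO SuHx lung of 950.4, 70.0 and 1199.8. All WT SuHx libraries lay far above normoxia, while AhrKO library 1 lay at the level of normoxia library 2. The difference of WT SuHx from normoxia was 4.03 ± 0.91 on the log2 scale (adjusted p = 0.0208). That call was lost when WT SuHx library 0 or 2, or normoxia library 0 or 1, was left out. The adjusted p was then between 0.0660 and 0.0698 and the difference 3.68 to 4.02. All lung groups shared 1 estimate of the spread, so the AhrKO libraries also enter this standard error. With only the 2 groups compared in the fit, the adjusted p was 0.00210.

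Rsad2 rose more evenly than Ifit1. Its signal was 577, 319 and 446 in normoxia, 978, 1272 and 1129 in WT SuHx, and 1429, 785 and 1225 in AhrKO SuHx lungs. Every SuHx library of either genotype lay above every normoxia library. The WT difference was 1.36 ± 0.25 (adjusted p = 0.00954) and kept its call in all 14 alternative settings. Cmpk2, a nucleotide kinase that lies next to Rsad2 in the gene order of GRCr8 and is usually induced with it, was not called (0.33 ± 0.19, adjusted p = 0.254), with 649 ± 151 in normoxia and 803 ± 27.2 in WT SuHx lung.

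**Figure D2:**
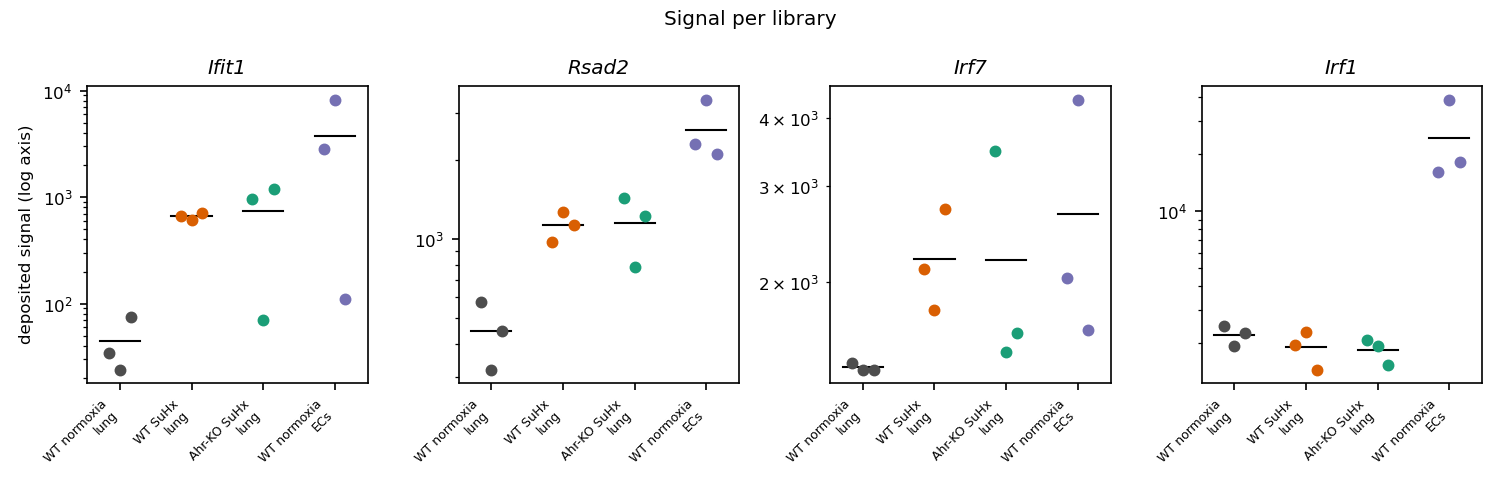
Deposited signal (vertical, log axis) of Ifit1, Rsad2, Irf7 and Irf1 in each library (points) of the 4 groups (horizontal), with bars at the arithmetic mean of 3 libraries. Ifit1 runs from 23.9 to 74.4 in normoxia lung and from 603 to 707 in WT SuHx lung, AhrKO library 1 (70.0) and EC library 2 (111) sit far below the others of their groups, and Irf1 lies between 16081 and 38921 in the EC libraries.

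Among the transcription factors and feedback genes, 0 of 5 rows were called. Irf7, the factor that drives the second wave of interferon alpha genes, had 1390 ± 24.0 in normoxia and 2202 ± 478 in WT SuHx lung without overlap of the libraries (0.64 ± 0.29, adjusted p = 0.159). Irf1 (2463, 1939 and 2253 against 1949, 2299 and 1443) and the row of Irf9 and Rnf31 (2819 ± 100.3 against 2773 ± 172) overlapped between the groups.

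None of the 5 rows of the RNA sensors was called. Trim25, the ubiquitin ligase of RIG-I signalling, had 3665 ± 381 in normoxia and 3253 ± 43.5 in WT SuHx lung. Ddx58, which encodes RIG-I itself, had 1341 ± 173 and 1548 ± 32.9. The log2 fold changes of these rows lay between -0.55 and 0.36, the lowest in the merged row of Ddx58 and Topors.

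Besides Ifit1, the 6 other rows of the RNA-directed effectors were not called. The row of Ifit2 and Ifit3, sister genes of Ifit1 in sequence and function, had 1544 ± 142 in normoxia and 1506 ± 158 in WT SuHx lung (-0.04 ± 0.20). Eif2ak2, the kinase PKR that stops translation, had 1291 ± 47.5 and 1495 ± 61.5. Oasl2, of the 2′-5′ oligoadenylate synthetase family, had lower values in all WT SuHx libraries (1270, 1196 and 1203) than in any normoxia library (1719, 1851 and 1610.5), but was not called (-0.50 ± 0.20, adjusted p = 0.126).

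Of the 8 rows of other effectors, only that of Rsad2 was called in WT SuHx lung. Ifi27, a mitochondrial protein used as a marker of interferon exposure, had 7800 ± 522 in normoxia and 11443 ± 4062 in WT SuHx lung (0.50 ± 0.21, adjusted p = 0.142), the latter with 10266, 8099 and 15963. Bst2 (tetherin), which holds budding virus at the membrane, had 5042 ± 609 and 5105 ± 1419. Mx1, a dynamin-like GTPase against influenza viruses, had 863 ± 114 and 923 ± 143.

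The Isg15 and ADP-ribosylation genes had 0 of 5 rows called. Herc6, the rodent ligase for Isg15, had 2558 ± 607 in normoxia and 1832 ± 262 in WT SuHx lung, and Parp9 2043 ± 128 and 2298 ± 383. Parp14 had 1407, 1463 and 636 in WT SuHx and 1980, 1655 and 832 in AhrKO SuHx lung, and Dtx3l 364, 342 and 196 and then 547, 428 and 227. Library 2 was the lowest of its group in both genotypes for these genes, which lie side by side with Parp9 in GRCr8. Parp9 did not share this, with 2725, 1983 and 2185 in WT SuHx and 2986, 2385 and 2488 in AhrKO SuHx lung.

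None of the 3 guanylate-binding protein genes, whose products coat vacuoles and bacteria, was called. Gbp2 had 2083 ± 313 in normoxia and 2250.2 ± 114 in WT SuHx lung, and Gbp5 2133 ± 332 and 1699 ± 155. None of the 4 rows of the MHC class I pathway was called either. The row of Tap1 and Tap2, the peptide transporter, had 1779 ± 452 and 1873 ± 291, and Psmb9, a subunit of the immunoproteasome, had 988 ± 128 and 1174 ± 155.

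Markers of several cell types moved in the same comparison. All 5 erythroid markers were called higher, at a median of 12.8-fold, with a summed signal of 695 to 1258 in normoxia and 4423 to 7398 in WT SuHx lung. Of the 9 fibroblast and mural cell markers 3 were higher (Col1a1, Lum and Acta2), of the 7 neutrophil markers 1 (Il1r2), and of the 6 markers of plasmacytoid dendritic cells 1 (Ccr9). The neutrophil markers lay at a median of 2.62-fold, with 5 of 7 at least 2-fold higher. Those of plasmacytoid dendritic cells lay at a median of 0.85-fold. The complement genes C1qa, C1qb and C1qc of macrophages were called higher (log2 fold changes of 1.73, 1.85 and 1.60), 3 of the 11 tested monocyte and macrophage markers. Lyz2, the lysozyme gene of myeloid and alveolar cells, made most of that list's sum and was not called, and without it the other 11 rows summed to 21019 to 23649 in normoxia and 24636 to 25499 in WT SuHx lung. Of the 10 endothelial markers 1 was higher and 2 lower, and of the 8 of lung epithelium 1 was lower. None of the 8 tested markers of T and NK cells, the 5 of B cells and the 7 of cardiac muscle was called. In bulk lung, fewer cells of a type and less RNA per cell cannot be told apart. The part of these markers in the rises of Ifit1 and Rsad2 was not tested.

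The lungs labelled AhrKO were compared with the WT lungs at the same day of SuHx to ask what depends on AhR. No interferon-stimulated gene was called in either direction by limma, against a background of 0.197% of all tested genes higher and 0.302% lower. An unadjusted p under 0.05 was found for 2 of the 37 members and for 13.6% of all tested genes. The median log2 fold change of the members was -0.06, against 0.02 over all genes. The 95% interval of the difference lay within 1 log2 unit of 0 for 28 of the 37 rows, so a 2-fold difference was outside the interval for these. It reached further for Ifit1, Psmb8, Gbp4, Dtx3l, Parp14, Nlrc5 and the rows of Ddx58 with Topors, Oas1a with Oas1i and Oas2 with Oas3. Of the cell type markers, 1 of 11 tested of monocytes and macrophages and 1 of 7 of neutrophils were called lower in the AhrKO lungs. No marker of the other lists was called, with those of cardiac muscle at a median of 13.7-fold over the WT lungs. The part of these cells in this comparison was not tested.

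Rsad2 differed by -0.01 ± 0.25 between the genotypes, with a 95% interval from -0.58 to 0.56. For Ifit1, whose libraries in the AhrKO group were far apart, the difference was -0.60 ± 0.91 and its interval ran from -2.65 to 1.44. The members with an unadjusted p under 0.05 went in opposite directions. Psmb8, an immunoproteasome subunit, had 791, 850.3 and 656 in WT and 644, 579 and 362 in AhrKO lungs, without overlap (-0.57 ± 0.20, adjusted p = 0.271). Oasl2 had 1270, 1196 and 1203 in WT and 2578, 1540 and 1358 in AhrKO lungs, also without overlap (0.52 ± 0.20, adjusted p = 0.301). Irf7 had 2111, 1775 and 2719 against 3469, 1484 and 1609, and Isg15 763, 626 and 903 against 919, 521 and 655, and for both the groups overlapped.

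Against normoxia, the AhrKO SuHx lungs gave the calls at 2 members again, Rsad2 (1.35 ± 0.25, adjusted p = 0.0107) and Ifit1 (3.42 ± 0.91, adjusted p = 0.0461), both higher. The background was 5.95% of all tested genes called higher and 3.80% lower. This comparison shares its normoxia libraries, which are WT, with that of the WT lungs, so the repeated calls are not independent. Genotype and SuHx differ together in it. The Ifit1 groups overlapped here, and its call was lost in 8 of the 14 alternative settings, among them those without AhrKO library 0 (adjusted p = 0.125), AhrKO library 2 (0.137), normoxia library 0 (0.131) or normoxia library 1 (0.136). Rsad2 lost its call in 1, without the libraries 2 of both groups (1.30, adjusted p = 0.0597). These 2 libraries had the most RNA of cardiac muscle markers, with a sum over 7 genes of 11242 and 24371 signal against 832 to 6906 in the other lung libraries.

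**Figure D3:**
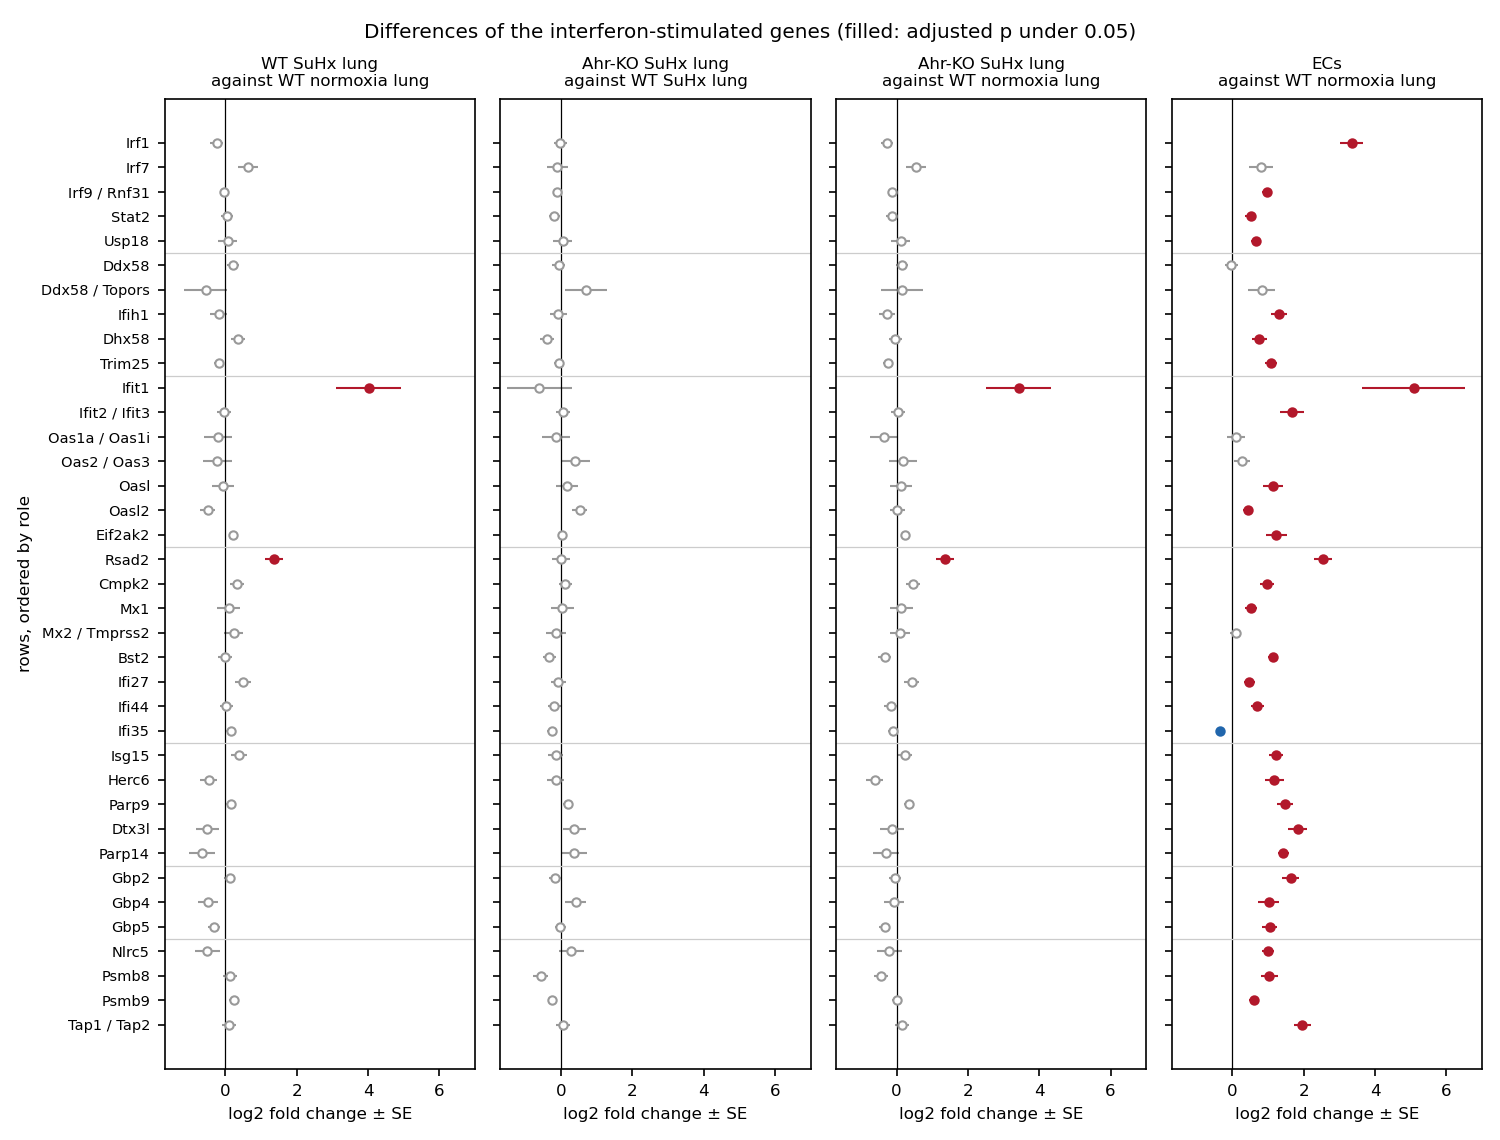
Log2 fold change (horizontal) of each of the 37 rows (vertical, ordered by role) in 4 comparisons (panels), with lines for ± 1 standard error. Filled points have an adjusted p under 0.05, red for higher and blue for lower. Ifit1 and Rsad2 are filled in the comparisons of SuHx with normoxia, none is filled between the genotypes, and 31 are filled in the ECs.

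The AhrKO libraries were uneven in these genes. Library 0 was the highest of the 3 in 34 of the 37 rows, whereas the same library was highest in 34.8% of all tested genes. The members lay there at a median of 1.46-fold over the mean of the other libraries of the group. The exceptions were Ifit1, highest in library 2, and Ifi27 and the row of Ddx58 and Topors, highest in library 1. In relation to the mean of the other AhrKO libraries, library 0 had 2.86-fold more of the row of Oas2 and Oas3, 2.61-fold of Oas1a and Oas1i, 2.52-fold of Mx1, 2.25-fold of Oasl and 2.24-fold of Irf7. Mx1 had 1742, 762 and 620.0 there, and Irf1 2079, 1934 and 1523. Library 2 was the lowest of its group in 23 of the 37 rows.

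The same library stood out in related genes that are not members. In the list of other interferon-induced effectors it was the highest of its group in 32 of 44 rows, at a median of 1.32-fold, and among the 18 rows of receptors and signalling in 10, at 1.08-fold. The summed markers of plasmacytoid dendritic cells were 5077, 4620 and 3640 in AhrKO libraries 0, 1 and 2, those of B cells 1454, 650.0 and 1004, those of neutrophils 5571, 5444 and 3657, and those of endothelial cells 81894, 75377 and 63114. These 4 sums were highest in library 0. Within the plasmacytoid dendritic cell markers, Cd4, Spib and Bcl11a were highest in library 0. Siglech (127, 228 and 66.1), Tcf4 and Ccr9 were highest in library 1. The T and NK cell markers summed to 1833, 2454 and 954, highest in library 1. The sums of lung epithelium, fibroblast and mural cells, cardiac muscle and erythroid cells were highest in library 2. The monocyte and macrophage markers without Lyz2 summed to 21402, 22656 and 18558, and Lyz2 alone had 195608, 232997 and 305489, so neither was highest in library 0. The part of these cells in the pattern was not tested. Without library 0, the members' median difference between AhrKO and WT SuHx lungs went from -0.06 to -0.23. A positive difference was found in 6 of 37 rows in place of 15, and 8 members had an unadjusted p under 0.05. In the fit of all libraries, 53.3% of all tested genes had a positive difference and 13.6% an unadjusted p under 0.05. The shares of all genes without library 0 are not given here. Without AhrKO library 1 or 2 the median turned positive, at 0.08 in both cases, with 22 and 23 positive rows. No member was called in any of these fits, and the direction of the median depends on which AhrKO library is left out.

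In the WT lungs no library led to this extent. Normoxia library 0 was the highest of its group in 20 of the 37 rows, at a median of 1.10-fold, against 29.9% of all tested genes. The WT SuHx libraries 0, 1 and 2 were highest in 10, 12 and 15 rows, against 24.1%, 37.7% and 38.2% of all tested genes.

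**Figure D4:**
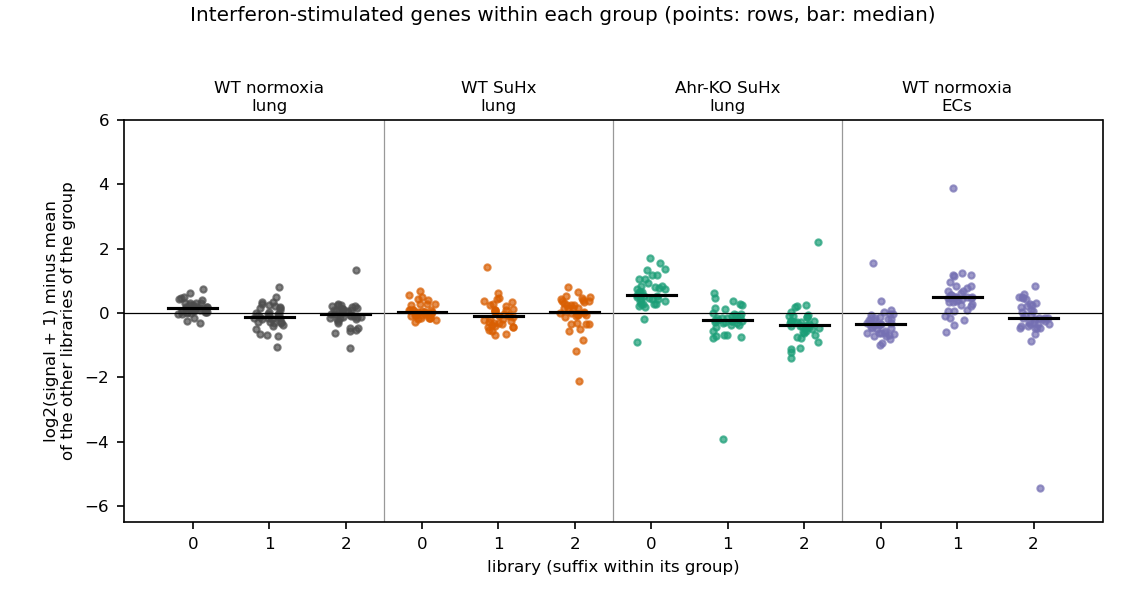
Difference of each of the 37 rows (points) in 1 library from the mean of the other libraries of its group, in log2(signal + 1) (vertical), for the 12 libraries (horizontal), with bars at the median. The median of AhrKO library 0 is at 0.54 and that of EC library 1 at 0.49, and the lowest points of AhrKO library 1 and EC library 2 are Ifit1.

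The ECs differed from normoxia lung in nearly the whole set. Of the 37 rows, 30 were called higher, 1 lower and 6 not called, against 26.1% of all tested genes called higher and 30.1% lower. The median log2 fold change of the members was 1.02 (2.03-fold), against -0.05 over all genes. In 20 rows the ECs were at least 2-fold higher, against 13.4% of all tested genes. The calls at 22 of the 31 rows were kept in all 14 alternative settings, and with quantile normalization the median was 0.87 and 28 rows were called, none of them lower. The 9 rows whose calls were lost in some setting were those of Ifit1, Ifi35, Gbp4, Ifi44, Stat2, Dhx58, Oasl2, Mx1 and Ifi27. For Dhx58 this was without normoxia library 2 (adjusted p = 0.0524), for Stat2 without EC library 1 or normoxia library 0 or 2 (0.0578 to 0.0979) and with quantile normalization (0.22, adjusted p = 0.240). For Oasl2 it was without EC library 1 or 2 or normoxia library 0 or 2, in a fit of all 12 libraries and with quantile normalization (0.0828 to 0.159). Mx1 lost its call without EC library 1 or 2 or normoxia library 1 or 2 and in the fit of all 12 libraries (0.0556 to 0.165). Ifi27 lost it without any of the 6 libraries except EC library 1 and in the fit of all 12 libraries (0.0595 to 0.0945), and with quantile normalization its difference was 0.03 (adjusted p = 0.905).

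Irf1, the factor induced early by interferon gamma and by inflammatory signals, was 10.2-fold higher in ECs. It had 16081, 38921 and 18225 in the ECs and 2463, 1939 and 2253 in normoxia lung, far apart in every library (3.35 ± 0.32, adjusted p = 0.000171). Ifit1 had 2828, 8234 and 111 in the ECs, so that library 2 lay near normoxia library 2 (74.4). Its difference of 5.09 ± 1.44 (adjusted p = 0.0196) lost its call without EC library 0 (adjusted p = 0.0658) or 1 (0.0545) and without normoxia library 0 (0.0581) or 1 (0.0548). Rsad2 had 2295, 3386 and 2094 in the ECs, each above every lung library (2.54 ± 0.25, adjusted p = 0.000213).

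By role, 4 of the 5 transcription factor and feedback rows were higher: Irf1, the row of Irf9 and Rnf31 (1.96-fold), Stat2 (1.43-fold) and Usp18, the protease that removes Isg15 and damps the receptor (1.60-fold). Irf7 had 2032, 4322 and 1628 and was not called (0.80 ± 0.33, adjusted p = 0.0705). Of the RNA sensors, Ifih1, which encodes MDA5 (2.48-fold), Trim25 (2.13-fold) and Dhx58 (1.69-fold) were higher, and both rows with Ddx58 were not called. Ddx58 on its own had 1341 ± 173 in lung and 1335 ± 296 in ECs (-0.02 ± 0.17), with a 95% interval from -0.43 to 0.39.

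Among the RNA-directed effectors the synthetase family was uneven. Oasl (2.21-fold) and Oasl2 (1.36-fold) were higher, whereas the row of Oas1a and Oas1i (0.11 ± 0.26, adjusted p = 0.734) and that of Oas2 and Oas3 (0.27 ± 0.22, adjusted p = 0.324) were not called. The row of Ifit2 and Ifit3 was 3.19-fold higher (5354 ± 2753 against 1544 ± 142) and Eif2ak2 2.36-fold.

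Of the 8 other effectors 6 were higher, from 1.38-fold for Ifi27 to 5.82-fold for Rsad2, with Bst2 at 2.19-fold (11036 ± 1192 against 5042 ± 609), Cmpk2 at 1.97-fold, Ifi44 at 1.63-fold and Mx1 at 1.44-fold. Ifi35, a partner of the protein Nmi, was the member that was lower, with 611, 617 and 583 in ECs against 769, 710.0 and 805 in lung (-0.33 ± 0.10, adjusted p = 0.0204). The call of Ifi35 was lost without EC library 0 (adjusted p = 0.0523) or normoxia library 0 (0.0658) and with quantile normalization (0.0714). The row of Mx2 and Tmprss2 was not called (0.10 ± 0.16).

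The 5 rows of the Isg15 and ADP-ribosylation genes were all at least 2-fold higher in ECs: Dtx3l 3.56-fold, Parp9 2.78-fold, Parp14 2.70-fold, Isg15 2.34-fold and Herc6 2.27-fold. Dtx3l is a ubiquitin ligase that forms a complex with Parp9. The 3 guanylate-binding protein genes were higher, with Gbp2 at 3.10-fold (6635 ± 2020 against 2083 ± 313), Gbp5 at 2.06-fold and Gbp4 at 2.03-fold, the last without a call when EC library 1 (adjusted p = 0.0722) or 2 (0.0530) was left out. All 4 rows of the MHC class I pathway were higher: Tap1 and Tap2 3.91-fold (6920.5 ± 1666 against 1779 ± 452), Psmb8 2.06-fold, Nlrc5, the activator of class I genes, 2.00-fold and Psmb9 1.52-fold.

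Within the ECs, library 1 was the highest in 29 of the 37 rows, against 33.7% of all tested genes, at a median of 1.41-fold over the mean of the others. The ratio to the mean of the other EC libraries was 5.60 for Ifit1, 2.36 for Irf7, 2.27 for Irf1 and 2.23 for Eif2ak2. Without it, 26 rows were called, the calls of Gbp4, Ifi44, Ifit1, Mx1, Oasl2 and Stat2 were lost, that of Irf7 was gained, and the median log2 fold change was 0.90.

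The label of the ECs was set against markers. All 10 endothelial markers were higher than in lung, with a summed signal of 244290 to 298778 against 86027 to 90759. The 8 lung epithelial markers were all lower, but Sftpc, the surfactant protein C gene of alveolar type 2 cells, still had 103787, 118532 and 46859. Immune markers were also higher: 5 of 5 of B cells (sum 6385 to 7561 against 765 to 2477), 5 of 6 of plasmacytoid dendritic cells (sum 9943 to 10387 against 3768 to 5070), 4 of 7 of neutrophils, and Cd3d, Cd3e and Cd3g of T cells (2.31, 2.29 and 2.21 on the log2 scale), with Ptprc, the pan-leukocyte gene, at 1.32. In ECs, Tcf4 made most of the plasmacytoid dendritic cell sum (6345, 6416 and 5871). Siglech had 534, 634 and 246 in ECs and 169, 73.3 and 127 in lung. The monocyte and macrophage markers were split, with 3 higher and 5 lower of 11 tested and, without Lyz2, a sum of 22944 to 27401 against 21019 to 23649. In that sum, the row of Csf1r and Pdgfrb had 3209, 2964 and 4264 in ECs and 10688, 9191 and 9666 in lung. It is also in the fibroblast and mural cell list. Ptprc had 8628, 9901 and 13428 in ECs and 3986, 3986 and 4644 in lung. Lyz2 itself had 110425, 179940 and 49298 in ECs and 310369, 459188 and 311153 in lung. Of the fibroblast and mural cell markers 8 of 9 were lower, and of the erythroid markers 4 of 5. Of the T and NK cell markers 3 were higher and 4 lower of 8 tested. Marco and Klrb1 were listed at 0 in all ECs, but were near the floor in normoxia lung too (3.98, 0 and 0, and 0.796, 0 and 0). The part of these cells in the higher interferon-stimulated genes was not tested.

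The interferons themselves were near the floor of the table. Ifnb1, Ifnk, Ifnl1 and Ifnl3 were listed at 0 in all libraries, and Ifna1, Ifna2 and Ifna5 at 0 to 2.41. Ifna4 had 16.7, 11.9 and 27.6 in normoxia, 8.51, 17.6 and 8.94 in WT SuHx, 17.0, 15.1 and 6.08 in AhrKO SuHx lung and 11.4, 10.8 and 12.5 in ECs, and was not called in any comparison. Ifng, the product of activated T and NK cells, had 2.39, 0 and 1.53 in normoxia lung, 1.49 to 3.82 in the SuHx lungs and 13.7, 12.1 and 7.49 in ECs, where it was called higher (2.52 ± 0.57, adjusted p = 0.00776).

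Receptors and their signalling genes made a list of 18 rows. In WT SuHx lung 0 were higher and 2 lower: Pias1, a SUMO ligase (-0.46 ± 0.10, adjusted p = 0.0180), and a row of Ifnar2 with LOC102554317 (-1.32 ± 0.34, adjusted p = 0.0337), while the rows of Ifnar2 alone and of Ifnar2 with Il10rb were not called. Between the genotypes none of the 18 was called. In AhrKO SuHx lung against normoxia, Socs1, the feedback inhibitor of Jak kinases, was higher (0.84 ± 0.19, adjusted p = 0.0222) and Pias1 lower (-0.41 ± 0.10, adjusted p = 0.0331). In ECs 11 were higher and 2 lower. Socs3 was highest by difference, with 34620.0, 66306 and 37965 against 1063, 753 and 1357 in lung (5.43 ± 0.30), and Socs1 followed (2.38 ± 0.25).

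Of the 21 rows of nucleic acid sensors and interferon induction, 0 were higher and 1 lower in WT SuHx lung (the row of Tbk1 and Xpot, -0.37 ± 0.11, adjusted p = 0.0478), and none was called between the genotypes. In AhrKO SuHx lung against normoxia, Mb21d1, which encodes the DNA sensor cGAS, was higher (0.85 ± 0.23, adjusted p = 0.0483) and the kinase gene Ikbke lower (-0.66 ± 0.16, adjusted p = 0.0308). In ECs 12 were higher and 3 lower, with Mb21d1 at 451, 1522 and 428 against 74.0, 96.3 and 93.6 in lung (2.91 ± 0.47).

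The list of other interferon-induced effectors held 47 rows, of which 46 were tested and 2 are also members. In WT SuHx lung 3 were higher and 2 lower. The chemokine gene Cxcl10, which draws Cxcr3-bearing T and NK cells, had 55.7, 30.7 and 33.0 in normoxia, 248, 395 and 267 in WT SuHx and 145, 114 and 47.9 in AhrKO SuHx lung. Cxcl11, a chemokine for the same receptor, had 2.39, 6.82 and 3.07, then 17.0, 41.3 and 27.6, and then 3.87, 7.08 and 5.32. For both genes every WT SuHx library lay above every library of the other lung groups. They rose in WT SuHx against normoxia (2.92 ± 0.41, adjusted p = 0.00242, and 2.55 ± 0.46, adjusted p = 0.00821). The difference of AhrKO from WT SuHx lung was not called for either (-1.67 ± 0.41, adjusted p = 0.139, and -2.15 ± 0.46, adjusted p = 0.0921).

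The galectin-binding protein gene Lgals3bp was higher in SuHx lung of both genotypes (0.65 ± 0.12, adjusted p = 0.00766, in WT and 0.60 ± 0.12, adjusted p = 0.0118, in AhrKO, against the same normoxia libraries). In WT SuHx lung Slfn13 (-0.97 ± 0.23, adjusted p = 0.0263) and Cd274, which encodes PD-L1 (-0.88 ± 0.22, adjusted p = 0.0329), were lower. Ifitm3, which blocks viral entry, was called in AhrKO SuHx lung against normoxia (0.56 ± 0.10, adjusted p = 0.00780). In ECs 25 were higher and 2 lower, with Cxcl10 at 1745, 5142 and 2091 (6.08 ± 0.43) and Cd274 at 3021, 7383 and 4186 (3.14 ± 0.29).

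MHC class I loading made a list of 17 rows, with the row of Tap1 and Tap2 shared with the members. In WT SuHx lung 3 were higher and 0 lower: the proteasome activator Psme2 (0.63 ± 0.13, adjusted p = 0.0143) and the chaperones Calr (0.49 ± 0.12, adjusted p = 0.0252) and Pdia3 (0.46 ± 0.12, adjusted p = 0.0322), the last pair also general chaperones of the endoplasmic reticulum. None was called between the genotypes or in AhrKO SuHx lung against normoxia. In ECs 11 were higher and 0 lower, among them B2m, the light chain of class I (1.21 ± 0.19), and the rows of the class I heavy chains RT1-A1 (1.59 ± 0.26) and RT1-A2 (1.48 ± 0.22), whose reads may be shared between near-identical genes, as may those of the Oas, Ifit and Gbp families.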

How the data were processed

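Per the labels, lung or EC RNA was purified with Trizol and a column with DNase treatment and sequenced from standard Illumina libraries. The submitters' processing notes name the rn6 build and FastQC. The sources used here name no aligner, counter, scaling or strand, so reads of antisense partners cannot be told apart. The values the authors deposited are a signal: within a library the low ones fall on multiples of 1 step (0.745 to 1.25), the worth of 1 read, and 79.9% to 81.7% of the non-zero ones are whole reads to within 0.05. Column suffixes do not match the numbers in the titles, so columns were tied to groups only. Genes whose mean signal reached 1 were tested with limma 3.58.1 in R 4.3.3 on log2(signal + 1) (eBayes with trend, two-sided, Benjamini-Hochberg over all tested genes), which understates the change of low genes. The 3 lung comparisons came from 1 fit of 9 libraries (15234 genes) and that of ECs from 6 libraries (15186 genes). The code was tested on simulated data. The members and gene lists were chosen with earlier results of these data known. Values in every library are given for members called in a lung comparison or differing by 3 or more log2 units in ECs, and up to 4 called genes per other list and lung comparison are named. Genes of these lists named for ECs, and Cd274, were chosen beyond this rule after their values were seen. Deviations from group means correlated at -0.04 to 0.22 between libraries of the same suffix, and suffixes were taken as names only. Promoter windows came from RefSeq, GRCr8, another build than rn6. One gene of the receptor and signalling list is not reported here.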

Additional observations from a re-analysis of the deposited data

How the results depend on the processing

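The members called numbered 2 in WT SuHx lung against normoxia, 0 between the genotypes, 2 in AhrKO SuHx lung against normoxia and 31 in ECs. In WT SuHx lung the count was 4 with only the 2 groups in the fit (Irf7 higher and Oasl2 lower were gained), and 1 to 3 with a library left out. In AhrKO SuHx lung against normoxia it was 1 with no filter, with quantile normalization and with only the 2 groups in the fit, 4 with the replicate block (Herc6 lower and Parp9 higher were gained), 0 without the libraries 2 of normoxia and AhrKO, and 1 to 2 with a library left out. Between the genotypes it was 0 in every setting run. In ECs it lay between 26 and 31 in every setting run. A pseudocount of 0.1, a mean of at least 5 and setting single low values to missing changed none of these counts. No member changed direction in a comparison in which it was called. Where members were not called, the sign of the difference turned in some setting for 12 of 35 rows in WT SuHx lung, 23 of 37 between the genotypes, 18 of 35 in AhrKO SuHx lung against normoxia and 3 of 6 in ECs. Between the genotypes these include Ifit1 (0.70), Rsad2 (0.24), Irf7 and Isg15, all 4 without AhrKO library 1. The labels do not say whether libraries of the same suffix belong together. With the suffixes as a replicate block, the counts were 2, 0, 4 and 31. Over all genes, leaving out a library gave 862 to 2277 calls in WT SuHx lung (2052 with all libraries), 32 to 55 between the genotypes (76) and 721 to 1882 in AhrKO SuHx lung against normoxia (1485), and the block 3385 in WT SuHx lung. The cause was not tested. With 3 libraries a group, the 95% intervals of 9 members between the genotypes reach past a 2-fold difference.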

Other observations

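Outside the fixed lists, the genes whose level ran most like the mean of the standardised members over the 9 lung libraries were Havcr1 (Pearson r = 0.87), Kcnh2 (0.86), Sdad1 (0.86), Gtpbp1 (0.85), Tspan32 (0.85), Irgm2 (0.85) and Cmtr1 (0.85). These are the first 7 of 13822 genes whose mean signal reached 10, and the r is a description over libraries that share groups and scaling, in which AhrKO library 0 is the highest. Irgm2, an interferon-inducible GTPase, had 1720, 1164 and 1106 in AhrKO libraries 0, 1 and 2, and 4843, 12609 and 4795 in the ECs against 1642, 1299 and 1452 in normoxia lung. Cmtr1, which methylates the cap of mRNA, had 1861, 1636 and 1421 in the same AhrKO libraries.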
